A study of Homo sapiens with 30 samples.

Results

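HT29 cells, an established line from a human colorectal adenocarcinoma, were kept for 24 h with an ethanol extract of Bojungikgi-tang at 500 µg/mL or with its solvent, and their messenger RNA was sequenced. Bojungikgi-tang is an East Asian herbal formula built around astragalus and ginseng roots, and it is prescribed for weak digestion and fatigue. The comparison used the 3 libraries labelled with this extract and dose and the 3 libraries labelled vehicle (0.1% DMSO), which are 6 of the 30 libraries of the series. The series text gives the DMSO as 2%, which conflicts with the label. The series was designed to record transcriptome responses to digestive herbal medicines, and its other 24 libraries hold the same extract at 100 and 20 µg/mL and extracts of Sayeok-tang, Banhasasim-tang and Yijung-tang at 500, 100 and 20 µg/mL. All groups share the cell line and the exposure time. An extract is a mixture whose composition the labels do not give, and HT29 is 1 tumour-derived line. Separate cultures for the replicates are not stated in the labels, so each p-value reflects a spread between libraries that may be technical. That spread was estimated over the 13 groups of all 30 libraries, not from the 6 compared libraries alone.

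Plant extracts reach colon cells as mixtures of polyphenols, saponins and terpenes, and several sensors answer them. The aryl hydrocarbon receptor (AhR) binds planar aromatic molecules and induces the oxidases CYP1A1 and CYP1B1 together with TIPARP, which restrains the receptor. NRF2 answers reactive molecules by inducing enzymes that make and use glutathione. SREBP2 sets the enzymes of cholesterol synthesis by the sterol content of the endoplasmic reticulum, and interferon-stimulated genes are set by STAT and IRF factors.

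The 6 libraries held between 42907062 and 71625568 expected counts each. Vehicle replicate 1 and Bojungikgi 500 replicate 2 stood apart from the rest of their groups. On the first principal component of all 30 libraries (12.19% of the variance) they lay at -57.26 and 32.36, while the other 4 lay at -18.45 and -11.22 (vehicle) and at 3.92 and 2.09 (Bojungikgi 500). The 86 genes of cytosolic ribosomal proteins, counted by symbol, took 6.91%, 5.887% and 5.561% of counts in vehicle replicates 1, 2 and 3 and 5.119%, 3.775% and 5.314% in Bojungikgi 500 replicates 1, 2 and 3. In the 24 libraries of the other groups this share ran from 4.594% to 5.516%, so every vehicle library lay above it and Bojungikgi 500 replicate 2 below it. Counts below are therefore given with these 2 libraries and without them. A called gene's value without them is given where it lost its call or its log2 fold change moved by over 1.5 times. Genes not called are mostly given with all libraries only, and some of them moved more or changed sign without the 2 (MKI67 from 0.11 to -0.17). Sample codes in the labels give the vehicle a code of its own, so code and treatment cannot be told apart.

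**Figure D1:**
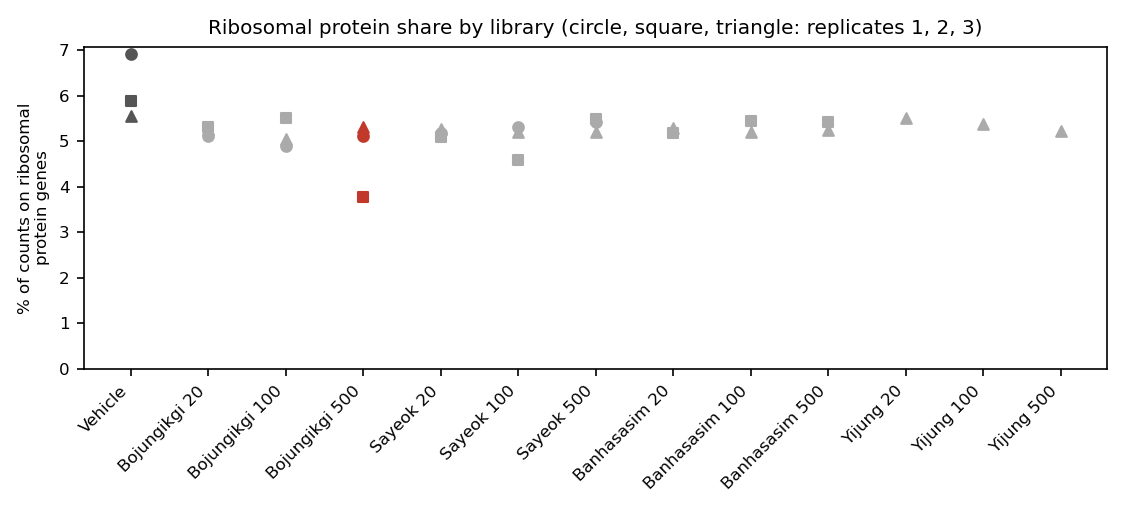
The share of counts on ribosomal protein genes (%, y axis) is plotted for each of the 30 libraries by group (x axis), with the vehicle in dark grey, Bojungikgi 500 µg/mL in red and the other groups in light grey; the numbers in group names are doses in µg/mL. Vehicle replicate 1 (6.91%) and Bojungikgi 500 replicate 2 (3.775%) are the extremes.

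The cells carried the profile of colon epithelium in both groups. All 11 epithelial markers were above the filter on low counts, and their summed level was 11900 to 13900 CPM in the vehicle and 10400 to 10900 CPM with the extract (CPM, counts relative to the TMM-scaled library total). KRT8, an intermediate filament protein of simple epithelia, had the highest level of the 11. It was itself lower with the extract (log2 fold change -0.30 ± 0.07, SE; -0.20 without the departing libraries). KRT19 (-0.38), LGALS4 (-0.44), VIL1 (-0.13) and CDH17 (-0.25) were called lower too. EPCAM (-0.19) and KRT18 (-0.23) were called lower with all libraries only (-0.11 and -0.15 without the departing ones). CDH1, KRT20, CDX2 and CEACAM5 were not called. The 6 fibroblast markers summed to 0.79 to 1.11 CPM in the vehicle and 0.583 to 0.946 CPM with the extract, with COL1A2 at 0 in all 6 libraries. For the 4 endothelial markers the sums were 1.3 to 1.9 and 1.75 to 2.23 CPM, with KDR at 0. Leukocyte markers summed to 1760 to 1960 and 1610 to 2030 CPM, nearly all of it from the lysozyme gene LYZ, while CD3D, MS4A1 and HLA-DRA were at 0.

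In all, 5580 of 18783 genes tested (29.7%) were called between Bojungikgi 500 and the vehicle, 2688 higher (14.3%) and 2892 lower (15.4%). A gene was called when its Benjamini-Hochberg adjusted p in edgeR's quasi-likelihood test was under 0.05. The test took its spread from all 30 libraries, and a fit of only the 6 compared libraries called 189 genes. Most differences were small: the median absolute log2 fold change of called genes was 0.29, 672 exceeded 1.5-fold and 193 exceeded 2-fold. Without the 2 departing libraries, 1569 of 18753 genes (8.37%) were called, 782 higher (4.17%) and 787 lower (4.2%), and 154 exceeded 1.5-fold. Of the 5580 genes, 1471 (7.83% of those tested) were called in the same direction in both fits, 730 higher (3.89%) and 741 lower (3.95%), and these are referred to as held. The other 4109 of the 5580 were called only with the departing libraries. Of the 5579 called genes also tested without them, 0 changed sign. Among all genes tested, the 3 libraries of each group did not overlap for 7018 (37.4%). Lists of known targets are described below by how many members were called, to be read against these percentages.

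**Figure D2:**
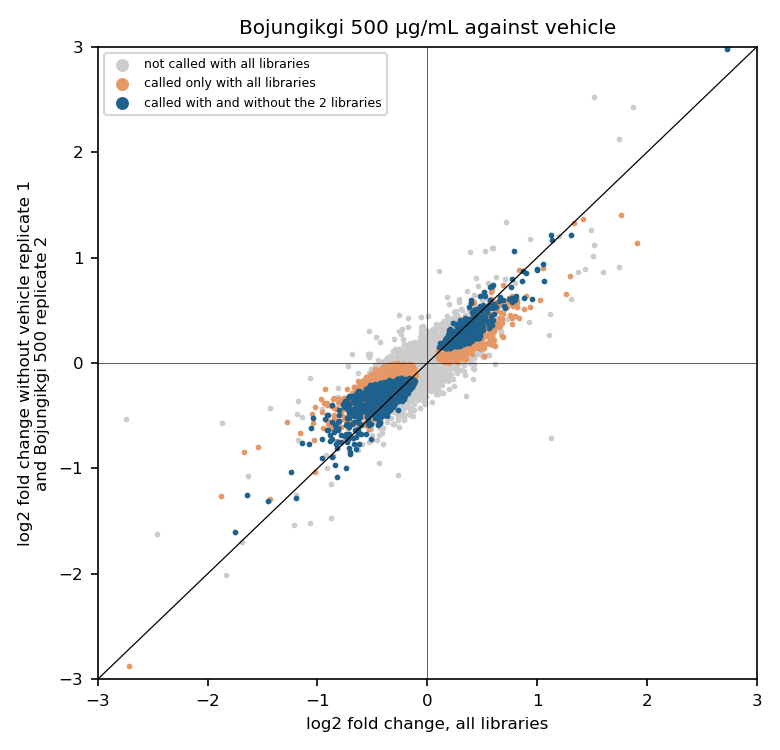
Log2 fold change of Bojungikgi 500 µg/mL over vehicle for 13490 genes whose vehicle or treated mean reached 1 CPM, fitted with all libraries (x axis) and without vehicle replicate 1 and Bojungikgi 500 replicate 2 (y axis); the diagonal marks equal values, and 8 genes lie outside the axes. The 3850 orange genes were called only with all libraries and the 1423 blue genes in both fits. Many orange genes lie nearer to 0 on the y axis than on the x axis, but not all (CD68 is at -0.43 on the x axis and -0.55 on the y axis).

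Genes of the AhR pathway rose. In bulk RNA, a change in the share of cells that express a gene and a change in RNA per cell cannot be told apart, here and below. Of 9 targets tested, 6 were called higher and 0 lower with all libraries, 7 and 0 without the departing ones, against backgrounds of 14.3% and 4.17% of all genes called higher. The same 9 genes had 7 higher and 0 lower when Bojungikgi 500 was compared with Bojungikgi 20, a comparison that uses no vehicle library in its fold change and in which 331 genes (1.76% of those tested) were called, 113 higher (0.602%) and 218 lower (1.16%). It shares the Bojungikgi 500 libraries with the main comparison. Without the departing libraries it had 346 genes called (1.85%), 122 higher and 224 lower, and again 7 and 0 of the AhR targets.

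CYP1A1 (ENSG00000140465, GRCh38 chromosome 15 at 74719542 to 74725610), the oxidase most closely tied to the receptor, was at 0.614, 0.352 and 0.356 CPM in vehicle replicates 1, 2 and 3 and at 2.54, 2.84 and 3.04 CPM in the Bojungikgi 500 replicates. The lowest treated library was above the highest vehicle library. The log2 fold change was 2.73 ± 0.20 (SE; adjusted p = 7.13e-09), and 2.98 ± 0.23 without the departing libraries (adjusted p = 9.83e-09). Its level stayed low in absolute terms even so. With 20 µg/mL the mean was 0.407 ± 0.0822 CPM (SD, n = 3), with 100 µg/mL 0.794 ± 0.17 CPM, and the difference between 500 and 20 µg/mL was 2.75 ± 0.20 (adjusted p = 3.07e-09).

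CYP1B1 (ENSG00000138061, chromosome 2 at 38066973 to 38109902), which oxidises oestrogens and polycyclic aromatics, was the most reliably changed gene of the comparison by p. It stood at 46.7, 47.5 and 52.6 CPM in the vehicle and at 89.4, 93.6 and 90.5 CPM with the extract, without overlap. The rise was 0.90 ± 0.04 on the log2 scale (adjusted p = 1.04e-12), and 0.85 ± 0.05 without the departing libraries (adjusted p = 7.62e-12). The means at 20 and 100 µg/mL, 58.7 ± 1.15 and 67.4 ± 1.3 CPM, lay between. An antisense gene overlaps CYP1B1 and the strand setting of the counting is not given, so reads of the pair could be mixed.

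TIPARP (ENSG00000163659, chromosome 3 at 156673235 to 156706770), an ADP-ribosyltransferase that feeds back on the receptor, read 63.6, 69.3 and 74.8 CPM in the vehicle and 104, 105 and 109 CPM with the extract. Again no libraries overlapped, and the log2 fold change was 0.61 ± 0.05 (adjusted p = 4e-08; 0.56 ± 0.06 without the departing libraries). The glucuronosyltransferase UGT1A6 rose by 0.46 ± 0.06 and the aldehyde dehydrogenases ALDH3A1 and ALDH1A3 by 0.52 ± 0.07 and 0.30 ± 0.06. NQO1, a quinone reductase shared with NRF2, was not called with all libraries (0.15 ± 0.06, adjusted p = 0.054) and was called without the departing ones (0.28, adjusted p = 0.000665). AHRR, the receptor's repressor, changed by 0.01 and NFE2L2, the gene of NRF2, by -0.10, neither of which was called.

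The promoters of these genes were searched for the core of the AhR response element, GCGTG, on both strands. All 7 list members with a RefSeq promoter (GRCh38.p14, 250 bases before to 50 after the first listed start) held it, as did 36.3% of 27303 promoters of the same length. The sequences of CYP1A1 (chr15:74725479-74725778, minus strand) and TIPARP (chr3:156674340-156674639, plus strand) are shown because these targets carried the response, with GCGTG, or CACGC where it lies on the other strand, in capitals. The table has no entry for CYP1B1.
CYP1A1: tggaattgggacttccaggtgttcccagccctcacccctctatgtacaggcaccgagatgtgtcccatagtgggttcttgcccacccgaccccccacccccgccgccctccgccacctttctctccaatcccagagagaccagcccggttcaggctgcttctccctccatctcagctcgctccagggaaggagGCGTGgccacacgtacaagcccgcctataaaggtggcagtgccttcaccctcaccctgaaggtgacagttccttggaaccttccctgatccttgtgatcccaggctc
TIPARP: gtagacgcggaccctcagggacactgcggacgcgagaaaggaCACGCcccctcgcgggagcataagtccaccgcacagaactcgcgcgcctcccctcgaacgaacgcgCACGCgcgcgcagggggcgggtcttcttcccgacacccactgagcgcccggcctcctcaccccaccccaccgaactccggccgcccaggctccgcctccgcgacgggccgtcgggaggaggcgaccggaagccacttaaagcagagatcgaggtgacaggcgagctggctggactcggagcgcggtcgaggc

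Glucuronidation genes, which couple glucuronic acid to drugs, bilirubin and plant phenols, moved with them. Of 13 genes of glucuronidation and sulfation, 5 were higher and 3 lower with all libraries, 5 and 1 without the departing ones, and 5 and 1 between 500 and 20 µg/mL. The 5 that rose were UGDH, which makes the sugar donor, by 0.41 ± 0.05 (adjusted p = 3.86e-06), and the transferases UGT1A10 (0.33 ± 0.04), UGT1A6 (0.46 ± 0.06), UGT1A8 (0.34 ± 0.05) and UGT1A1 (0.31 ± 0.06). The UGT1A genes share their last exons, so the counting could have split reads among them and they are not independent of each other. The lower members included SULT1A1 (-0.27 ± 0.07; without the departing libraries -0.19 and not called, adjusted p = 0.125) and PAPSS2, which makes the sulfate donor (-0.18 ± 0.04). UGT1A6 also stands on the AhR list.

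NRF2 targets rose in part. Of 24 members, 10 were called higher and 3 lower with all libraries, 11 and 0 without the departing ones, and 12 and 0 between 500 and 20 µg/mL (14 and 0 there without the departing libraries). Both subunits of glutamate-cysteine ligase, the limiting enzyme of glutathione synthesis, were higher. GCLC read 72.1, 75.5 and 79.7 CPM in the vehicle and 102, 106 and 103 CPM with the extract, a log2 fold change of 0.45 ± 0.04 (adjusted p = 3.45e-07). GCLM read 67.7, 62.7 and 68.7 CPM against 88.9, 91.8 and 89.9 CPM, a rise of 0.44 ± 0.05. In neither gene did a vehicle library reach a treated one, and the values without the departing libraries were 0.40 and 0.45.

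The cystine importer SLC7A11, which feeds the same synthesis, rose from 150 ± 9.28 to 224 ± 23.3 CPM (SD, n = 3), by 0.58 ± 0.07, and the NADPH-producing malic enzyme ME1 by 0.35 ± 0.04. Haem oxygenase HMOX1 (0.42 ± 0.06) and thioredoxin reductase TXNRD1 (0.27 ± 0.04) were higher as well. The aldo-keto reductases AKR1B10 (0.32 ± 0.06) and AKR1C2 (0.40 ± 0.08) were called, with the caution that AKR1C2 shares reads with AKR1C1 and AKR1C3. The 3 members called lower were the ferritin chains FTH1 and FTL (both -0.42 ± 0.11) and thioredoxin TXN (-0.46 ± 0.13). None of these 3 was called without the departing libraries, where their values were -0.25, -0.20 and -0.15. The letters TGACNNNGC of the antioxidant response element stood in 4 of the 16 list promoters in the table (25%) and in 13.6% of all promoters.

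**Figure D3:**
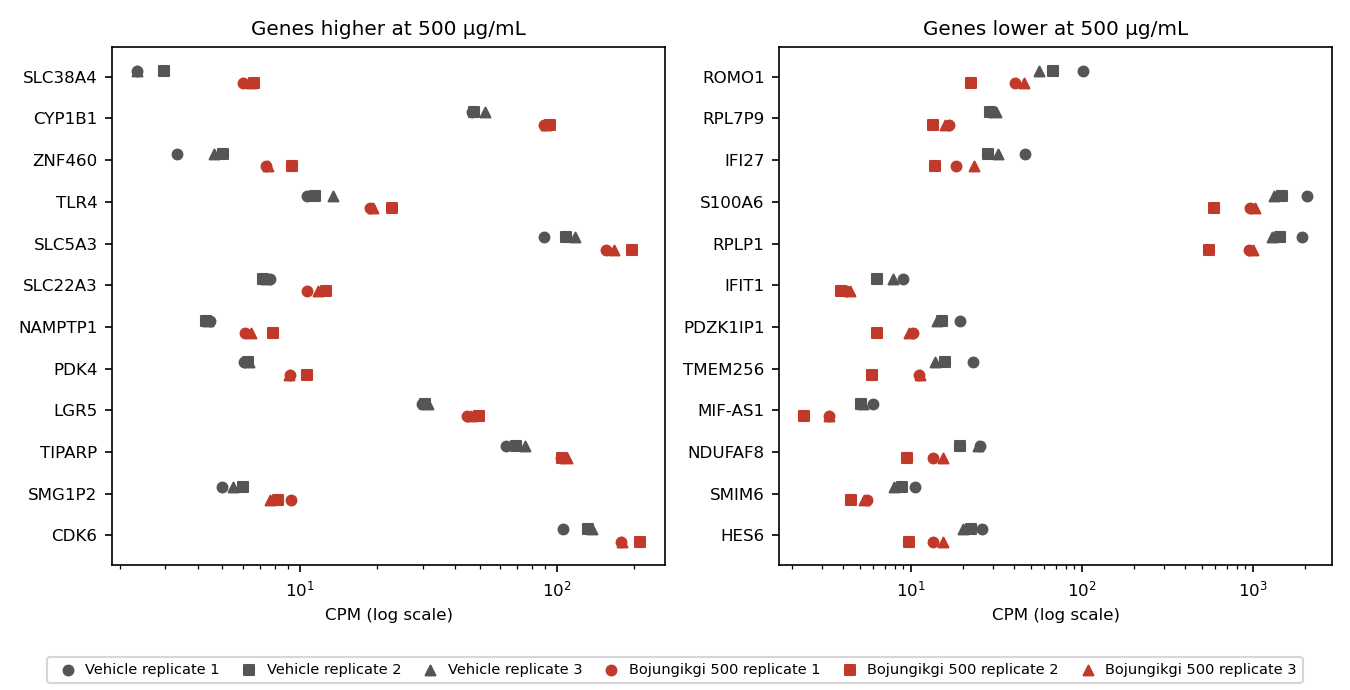
Level (CPM, log x axis) in each of the 3 vehicle libraries (grey) and 3 Bojungikgi 500 µg/mL libraries (red) for the 12 higher and the 12 lower genes with the largest log2 fold change among held genes; symbols mark replicates 1 to 3. No red symbol overlaps the grey range of its gene, which was a condition for choosing these genes. On the right the red square (Bojungikgi 500 replicate 2) is the lowest value of all 12 genes.

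Outside these lists, the 10 other leading rises were SLC38A4, ZNF460, TLR4, SLC5A3, SLC22A3, NAMPTP1, PDK4, LGR5, SMG1P2 and CDK6. The 24 leading genes, 12 in each direction, were picked by fold change among held genes. Each had at least 5 CPM in 1 group and no overlap between the groups, so size and lack of overlap are descriptions only. Of the 24, only SLC38A4, CYP1B1, SLC22A3, TIPARP and IFIT1 were also called between 500 and 20 µg/mL. SLC38A4 (ENSG00000139209, chromosome 12 at 46764761 to 46832408), an amino acid transporter known from liver and placenta, read 2.33, 2.95 and 2.33 CPM in the vehicle and 5.99, 6.64 and 6.45 CPM with the extract. The treated libraries all lay above the highest vehicle library, and the log2 fold change was 1.31 ± 0.11 (1.22 ± 0.13 without the departing libraries). SLC22A3, a carrier of organic cations, rose by 0.66 ± 0.07 and SLC5A3, which takes up the osmolyte myo-inositol, by 0.71 ± 0.10. TLR4, the receptor of bacterial lipopolysaccharide, rose from 11.9 ± 1.42 to 20.3 ± 2.18 CPM, by 0.77 ± 0.09.

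LGR5, the R-spondin receptor that marks intestinal stem cells, read 29.9, 30.8 and 31.4 CPM in the vehicle and 44.6, 49.9 and 46.4 CPM with the extract. These groups were well apart relative to their spread (0.61 ± 0.06, adjusted p = 1.48e-07; 0.55 ± 0.06 without the departing libraries). The mean of LGR5 at 20 µg/mL was already 40.8 ± 0.645 CPM, and the gene was not called between 500 and 20 µg/mL (0.20, adjusted p = 0.0658). Of the 14 other Wnt targets and stem cell genes tested, 3 were called higher and 4 lower, and 0 and 2 without the departing libraries. Those 2 were SP5 (-0.51 ± 0.08) and AXIN2 (-0.13 ± 0.04), the feedback inhibitor of the pathway. The other leading rises were PDK4, which closes pyruvate dehydrogenase (0.62 ± 0.09), the G1 kinase CDK6 (0.59 ± 0.09), the zinc finger gene ZNF460 (0.88 ± 0.17) and the pseudogenes NAMPTP1 and SMG1P2, whose reads may stem from NAMPT and SMG1.

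PDK4 belongs to the list of PPAR targets and fatty acid oxidation, of which 5 of 14 genes were higher and 1 lower, the same numbers without the departing libraries. CPT1A, which admits fatty acids to the mitochondrion, rose by 0.28 ± 0.05 and the fatty acid binding protein FABP1 by 0.60 ± 0.15. CPT2 fell by 0.24 on the log2 scale.

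Genes of cholesterol synthesis fell. Of 24 members, 0 were higher and 17 lower with all libraries, 0 and 14 without the departing ones, and 0 and 9 between 500 and 20 µg/mL (0 and 6 there without the departing libraries), against backgrounds of 15.4%, 4.2% and 1.16% of all genes called lower. FDPS, which makes farnesyl diphosphate, read 210, 203 and 191 CPM in the vehicle and 154, 131 and 155 CPM with the extract. The groups did not overlap, and the log2 fold change was -0.46 ± 0.06 (adjusted p = 6.18e-06; -0.35 without the departing libraries). INSIG1, the sterol sensor that is itself a target of SREBP2, read 194, 187 and 185 CPM against 157, 155 and 152 CPM. Its fold change of -0.29 ± 0.04 was nearly as large without the departing libraries (-0.27) and between 500 and 20 µg/mL (-0.26).

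The fall reached most steps of the pathway. HMGCS1 at its entry changed by -0.24 ± 0.04, the mevalonate kinase MVK by -0.45 ± 0.07, the sterol demethylation enzyme MSMO1 by -0.46 ± 0.06 and EBP, a late isomerase, by -0.56 ± 0.09 (-0.31 without the departing libraries). SQLE, CYP51A1, SC5D, SREBF2 and STARD4 were not called in the main test, with fold changes between -0.07 and 0.11. The sterol response letters TCACNCCAC stood in 1 of 18 list promoters (5.56%) and in 1.15% of all promoters.

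Fatty acid synthesis did not move as a block. Of 13 genes, 5 were higher and 4 lower with all libraries, and 2 and 3 without the departing ones. ACSS2, which turns acetate into acetyl-CoA, read 21.9, 23.2 and 22.5 CPM in the vehicle and 16.7, 16.6 and 16.8 CPM with the extract (-0.44 ± 0.05, adjusted p = 1.08e-06). These tight groups lay far apart, yet the level at 20 µg/mL, 27.9 ± 0.503 CPM, was above the vehicle, and the difference between 500 and 20 µg/mL was -0.74 (adjusted p = 1.57e-10). ACSL3 and ELOVL6, which activate and lengthen fatty acids, rose by 0.25 ± 0.04 and 0.23 ± 0.04. The synthase FASN, at -0.05, was not called.

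**Figure D4:**
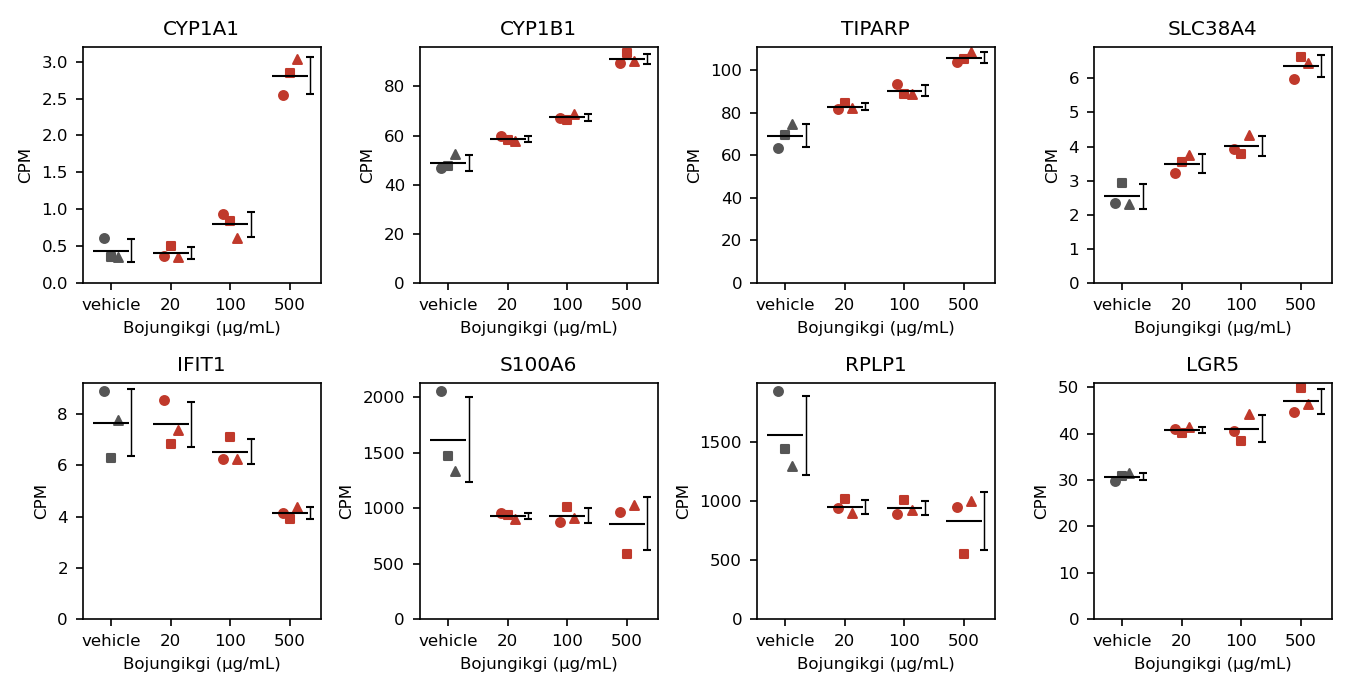
Level (CPM, linear y axes from 0) of 8 genes in the vehicle (grey) and at 20, 100 and 500 µg/mL of Bojungikgi extract (red); symbols are replicates 1 to 3, the bar is the mean and the whisker the SD. CYP1A1 and IFIT1 differ from the vehicle mainly at 500 µg/mL, whereas S100A6 and RPLP1 are as low at 20 µg/mL as at 500 µg/mL.

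Interferon-stimulated genes were lower. Of 22 members, 0 were higher and 11 lower with all libraries, 0 and 7 without the departing ones, and 0 and 9 between 500 and 20 µg/mL. IFIT1 (ENSG00000185745, chromosome 10 at 89392546 to 89406486), which binds foreign RNA caps, read 8.9, 6.3 and 7.78 CPM in the vehicle and 4.14, 3.91 and 4.38 CPM with the extract. No treated library came near the lowest vehicle library, and the log2 fold change was -0.87 ± 0.11 (adjusted p = 9.6e-06; -0.72 ± 0.12 without the departing libraries). Its mean at 20 µg/mL was 7.6 ± 0.872 CPM, close to the 7.66 ± 1.3 CPM of the vehicle, and 6.54 ± 0.498 CPM at 100 µg/mL.

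IFIT3 (ENSG00000119917), a partner of IFIT1, read 12.8, 11.1 and 12 CPM in the vehicle against 7.9, 8.24 and 8.25 CPM, a change of -0.55 ± 0.07 (-0.51 without the departing libraries). OASL, a relative of the oligoadenylate synthetases, changed by -0.65 ± 0.11 (-0.43 without the departing libraries) and IRF9, the DNA-binding part of the interferon transcription complex, by -0.39 ± 0.08. For IFI27, a mitochondrial interferon-induced protein, the libraries were 46.1, 28.2 and 32.1 CPM against 18.3, 13.8 and 23.2 CPM. The groups did not overlap, but the departing libraries were the extremes, and the log2 fold change of -0.93 ± 0.17 became -0.53 ± 0.14 without them. STAT2 and OAS3, at 0.12 and 0.09, were not called.

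The core of the interferon-stimulated response element, GAAA followed by any 2 bases and GAAA again, was found on either strand in 11 of the 15 list promoters in the table (73.3%) and in 3.65% of all promoters. The promoters of IFIT1 (chr10:89392373-89392672, plus strand) and IFIT3 (chr10:89327747-89328046, plus strand) are shown because these genes fell most reliably by p, with the matches in capitals, read here on the other strand as TTTC, any 2 bases and TTTC.
IFIT1: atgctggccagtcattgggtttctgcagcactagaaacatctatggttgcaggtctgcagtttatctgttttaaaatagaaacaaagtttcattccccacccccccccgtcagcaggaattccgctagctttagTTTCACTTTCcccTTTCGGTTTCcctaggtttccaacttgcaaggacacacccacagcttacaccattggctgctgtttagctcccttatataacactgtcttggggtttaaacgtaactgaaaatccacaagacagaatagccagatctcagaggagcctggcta
IFIT3: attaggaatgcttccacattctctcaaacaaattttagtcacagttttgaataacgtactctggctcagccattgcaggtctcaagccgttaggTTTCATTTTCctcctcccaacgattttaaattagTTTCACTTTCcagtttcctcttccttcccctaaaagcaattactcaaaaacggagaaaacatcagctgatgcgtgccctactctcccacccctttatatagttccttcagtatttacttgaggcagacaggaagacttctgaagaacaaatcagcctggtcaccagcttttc

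Secretory and mucin genes were lower too. Of 19 goblet cell and mucin genes, 0 were higher and 6 lower with all libraries, 0 and 6 without the departing ones, and 0 and 4 between 500 and 20 µg/mL. The membrane mucin MUC13 read 137, 141 and 147 CPM in the vehicle and 107, 114 and 106 CPM with the extract. Every treated library was below every vehicle library (-0.38 ± 0.04, adjusted p = 3.63e-06), and the value was -0.44 without the departing libraries. The lectin REG4 changed by -0.60 ± 0.09 (then -0.39), AGR2, a disulfide isomerase needed for mucin folding, by -0.45 ± 0.07 (then -0.27), and MUC20 by -0.28 ± 0.05. MUC2, the gel-forming mucin of goblet cells, and the lineage factors ATOH1 and SPDEF were not called (-0.13, -0.14 and -0.07).

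Of 15 matrix and surface genes, 3 were higher (20%) and 3 lower (20%), near the shares of all genes (14.3% and 15.4%). Without the departing libraries 2 were higher and 3 lower, beside 4.17% and 4.2% of all genes. The matrix protease MMP7 fell from 56.6 ± 4.68 to 38 ± 4.09 CPM (-0.57 ± 0.07, adjusted p = 5.62e-06), and the integrin chains ITGA2 and ITGA6 rose by 0.59 ± 0.09 and 0.40 ± 0.07 (0.36 and 0.21 without the departing libraries). Among 19 enterocyte genes, 1 was higher and 5 lower (1 and 3 without the departing libraries), including the glucose transporter SLC5A1 at -0.26 ± 0.06 and villin VIL1 at -0.13 ± 0.04. Junction genes showed 3 higher (16.7%) and 2 lower (11.1%) of 18, also near the shares of all genes. Of these only CLDN12 (0.25 ± 0.05) was called without the departing libraries.

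Mitotic genes were lower while some S phase genes were higher. Of 22 G2/M genes, 2 were higher and 10 lower with all libraries, and 0 and 7 without the departing ones. Cyclin B1 (CCNB1) read 196 ± 7.29 CPM in the vehicle and 154 ± 11.8 CPM with the extract (-0.35 ± 0.05, adjusted p = 2.93e-05; -0.26 without the departing libraries). Cyclin B2 (CCNB2, -0.32 ± 0.04), the mitotic kinase PLK1 (-0.35 ± 0.06) and the anaphase activator CDC20 (-0.30 ± 0.05) were lower by like amounts. At 20 µg/mL the level of CCNB1 was already 149 ± 2.25 CPM, and between 500 and 20 µg/mL the list had 1 gene higher and 0 lower. The proliferation marker MKI67 (0.11), TOP2A (0.07) and CDK1 (-0.11) were not called.

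Of 23 G1/S and DNA replication genes, 9 were higher and 1 lower with all libraries, and 5 and 0 without the departing ones. The ribonucleotide reductase subunit RRM2 read 278, 286 and 298 CPM in the vehicle and 345, 347 and 343 CPM with the extract. The groups were apart with little spread (0.26 ± 0.04, adjusted p = 3.12e-05). The helicase subunits MCM4 (0.26 ± 0.05) and MCM6 (0.19 ± 0.04) and the phosphatase CDC25A (0.25 ± 0.05) were higher as well. Among 19 p53 targets, 4 were higher and 6 lower (1 and 3 without the departing libraries), with the cell cycle inhibitor CDKN1A at -0.41 ± 0.07, BAX at -0.42 ± 0.08 (-0.21 without the departing libraries) and FDXR at -0.50 ± 0.09.

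Some chaperone genes were called higher and a few lower. Of 18 unfolded protein response genes, 7 were higher and 1 lower (6 and 0 without the departing libraries), and of 14 heat shock genes, 5 and 2 (4 and 0). The cytosolic chaperone HSPH1 rose from 382 ± 9.12 to 509 ± 16.7 CPM (0.41 ± 0.04, adjusted p = 1.37e-06) and HSPA1A from 183 ± 7.33 to 237 ± 3.15 CPM (0.38 ± 0.06), which shares nearly its whole sequence with HSPA1B. HSPA8 showed the largest rise in CPM among held genes, from 2140 ± 61.5 to 2550 ± 73.1 CPM (0.25 ± 0.04). In the endoplasmic reticulum, DNAJC3 rose by 0.45 ± 0.07 (0.28 without the departing libraries), CANX by 0.32 ± 0.05 (then 0.20) and HSPA5, the central chaperone of that response, by 0.21 ± 0.04. The mitochondrial co-chaperonin HSPE1 and the small heat shock protein HSPB1, both at -0.35, were called lower with all libraries only (-0.18 and -0.05 without the departing ones). XBP1 and HERPUD1 were not called (-0.05 and 0.02), nor were the cytosolic chaperones HSP90AA1, HSP90AB1, DNAJB1 and DNAJA1. Between 500 and 20 µg/mL the unfolded protein list had 0 calls in either direction and the heat shock list 1 higher and 0 lower.

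Lists of other stress sensors had calls in both directions, to be read beside 14.3% higher and 15.4% lower of all genes. Without the departing libraries these shares of all genes were 4.17% and 4.2%. ATF4 targets had 3 higher and 5 lower of 22 (3 and 0 without the departing libraries), NF-kB targets and cytokines 1 and 2 of 15 (2 and 1), and MAPK output genes 4 and 1 of 20 (3 and 1). Single members still stood out: the neutrophil attractant CXCL8 rose from 4.35 to 6.17 CPM (0.51 ± 0.09) and RELB changed by -0.39 ± 0.07. Of 19 hypoxia and glycolysis genes, 6 were higher and 3 lower (3 and 2), with PDK1 and HK2 at 0.41 ± 0.06 and 0.39 ± 0.06 and the carbonic anhydrase CA9 at -0.44 ± 0.07 (0.26, 0.25 and -0.29 without the departing libraries). The list of PXR and CAR drug metabolism had 3 and 2 of 7 (3 and 1), among them CYP3A5 at 0.21 ± 0.05. Glucose-sensing genes had 0 and 1 of 6 (0 and 0), and YAP targets 1 and 1 of 11 (0 and 1), with CCN2 at -0.48 ± 0.11.

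Lysosomal genes and metallothioneins were lower. Of 20 autophagy and lysosome genes, 0 were higher and 8 lower (0 and 4 without the departing libraries), among them the sialidase NEU1 (-0.38 ± 0.05), the proton pump subunit ATP6V0D1 (-0.39 ± 0.06) and cathepsin B (CTSB, -0.23 ± 0.04). Of 6 metallothionein and zinc export genes, 5 were lower and the zinc exporter SLC30A1 was higher (0.20 ± 0.06, and 0.10 without the departing libraries). Only MT1X remained called without the departing libraries: it read 5.11, 3.92 and 3.58 CPM in the vehicle and 2.27, 2.03 and 2.42 CPM with the extract. The groups were apart (-0.89 ± 0.13; -0.68 without the departing libraries), with the caution that metallothionein genes are near copies that can share reads. At 20 µg/mL MT1X was already at 2.49 ± 0.253 CPM (SD), beside 2.24 ± 0.196 CPM at 500 µg/mL. Between 500 and 20 µg/mL the lysosome list had 0 genes higher and 1 lower (NEU1, -0.25). The metallothionein list had 0 calls there in either direction.

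**Figure D5:**
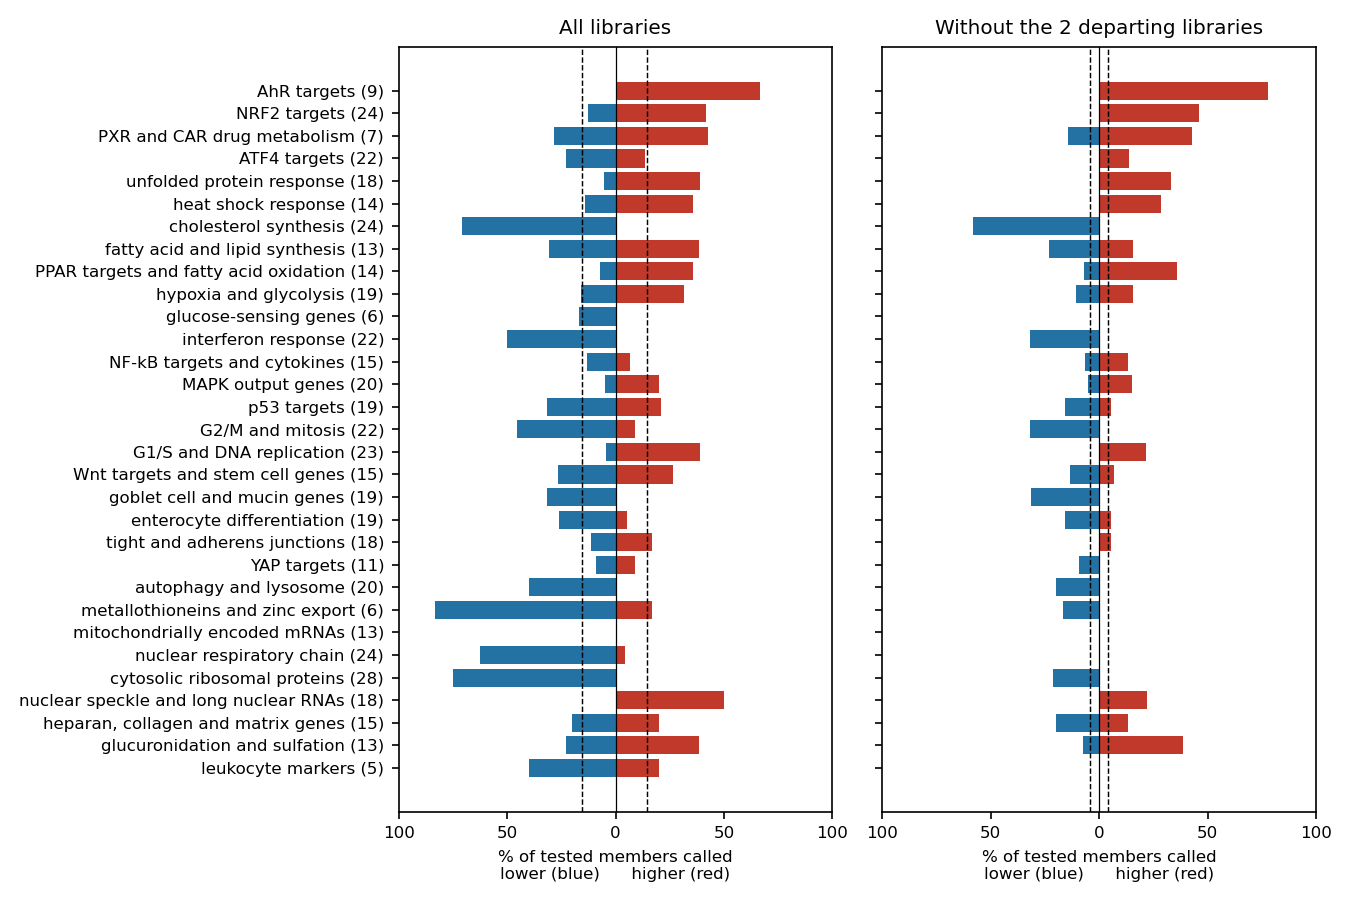
Share of tested members (x axis, %) called lower (blue, to the left) and higher (red, to the right) in each gene list, with all libraries (left panel) and without vehicle replicate 1 and Bojungikgi 500 replicate 2 (right panel); the number of members tested is in brackets and dashed lines mark the share of all genes called lower and higher. AhR and cholesterol lists keep most of their calls in the right panel, whereas the nuclear respiratory chain goes from 15 of 24 members lower to 0.

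Ribosomal protein and respiratory chain genes were where the departing libraries counted most. Of 28 cytosolic ribosomal protein genes, 0 were higher and 21 lower with all libraries, and 0 and 6 without the departing ones. Between 500 and 20 µg/mL 0 of them were called in either direction. RPLP1, an acidic stalk protein of the large subunit, read 1930, 1440 and 1290 CPM in the vehicle and 947, 551 and 998 CPM with the extract. The groups were apart, with vehicle replicate 1 highest and Bojungikgi 500 replicate 2 lowest, and the log2 fold change went from -0.90 ± 0.18 to -0.49 ± 0.12 without them. RPS2 (-0.43 ± 0.08, then -0.22), RPLP0 (-0.43 ± 0.09, then -0.21) and RPL10 (-0.49 ± 0.11, then -0.24) were among those called in both fits. RPL39 and RPS29, at -0.82 ± 0.20 and -0.96 ± 0.28, were called only with the departing libraries (-0.43 and -0.46 without them).

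Nuclear genes of the respiratory chain had 1 higher and 15 lower of 24 with all libraries and 0 in either direction without the departing ones. UQCRQ of complex III read 187, 139 and 140 CPM in the vehicle and 113, 65.7 and 118 CPM with the extract. Its groups did not overlap, but -0.64 ± 0.16 (adjusted p = 0.00638) became -0.27 without the departing libraries (adjusted p = 0.102). COX4I1 (-0.43 ± 0.11, then -0.15) and COX5A (-0.44 ± 0.11, then -0.22) did likewise. None of the 13 mitochondrially encoded mRNAs was called in either fit, with fold changes between -0.55 and 0.39. The lists of nuclear speckle and long nuclear RNAs moved the other way, with 9 higher and 0 lower of 18, and 4 and 0 without the departing libraries, led by PNISR (0.24 ± 0.05) and CCNL1 (0.25 ± 0.05).

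In all 12 leading falls Bojungikgi 500 replicate 2 was the lowest library. S100A6 (ENSG00000197956, chromosome 1 at 153534599 to 153536244), a calcium-binding protein of epithelial tumours, read 2060, 1470 and 1330 CPM in the vehicle and 962, 591 and 1030 CPM with the extract. The groups did not overlap, and -0.91 ± 0.17 (adjusted p = 0.000933) became -0.49 ± 0.11 (adjusted p = 0.013) without the departing libraries. ROMO1, a small mitochondrial membrane protein, went from -1.04 ± 0.21 to -0.52 ± 0.13, and the levels of S100A6 and ROMO1 at 20 µg/mL, 929 ± 27.1 and 42.3 ± 1 CPM, were close to the 861 ± 236 and 36.2 ± 12.3 CPM at 500 µg/mL. The complex I assembly factor NDUFAF8 (-0.84 ± 0.13, then -0.59), the small membrane proteins TMEM256 (-0.87 ± 0.20, then -0.40), SMIM6 (-0.83 ± 0.11, then -0.63) and PDZK1IP1 (-0.87 ± 0.13, then -0.56), the Notch pathway repressor HES6 (-0.81 ± 0.12, then -0.56) and MIF-AS1, which is antisense to MIF (-0.85 ± 0.12, then -0.65) and, as the strand setting is not given, may hold reads of MIF, complete the leading falls with RPL7P9. RPL7P9, a pseudogene of RPL7, was called at -0.96 ± 0.07 and -0.90 ± 0.08, though its reads may stem from RPL7 or other copies.

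Transcript length moved with direction. Among protein-coding genes tested, the median length of the longest annotated transcript was 3583 bases. It was 5499 bases for genes called higher and 2236 bases for genes called lower. For held genes it was 5020 and 2559 bases, and for genes called only with the departing libraries 5723 and 2126 bases. The part of length, and of the ribosomal protein share, in the single results was not tested.

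Genes called only with the departing libraries were led by RN7SL2 among the rises and CEMP1 among the falls. RN7SL2, a copy of the RNA of the signal recognition particle, read 10.3, 6.77 and 5.55 CPM in the vehicle and 76.1, 18.6 and 28.7 CPM with the extract. The groups did not overlap but replicates of the extract differed widely, and the log2 fold change of 2.47 ± 0.78 became 3.07 ± 0.96 with an adjusted p of 0.0606 without the departing libraries. CEMP1 changed by -1.88 ± 0.63 (adjusted p = 0.0314) and TMEM160 by -1.43 ± 0.37 (adjusted p = 0.00833), with values of -1.26 and -1.29 without the departing libraries (adjusted p = 0.314 and 0.106). The pseudogenes CCDC144BP (0.77 ± 0.20), SMG1P1 (0.69 ± 0.21) and PKD1P1 (0.69 ± 0.18) were higher (0.43, 0.25 and 0.47 without the departing libraries), and reads of their parent genes can reach each of them. In this set, vehicle replicate 1 was the lowest library for SMG1P1 (19 CPM, against 33 and 34.6 CPM) and for ZBED6 (12.5 CPM, against 20 and 20.8 CPM).

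The other doses of the extract were compared with the same 3 vehicle libraries, so their counts share those libraries and are given side by side only. At 100 µg/mL, 2964 genes (15.8%) were called, 1423 higher (7.58%) and 1541 lower (8.2%). At 20 µg/mL it was 3440 (18.3%), 1712 higher (9.11%) and 1728 lower (9.2%). Without the departing libraries these counts were 1446 (7.71%) and 1866 (9.95%). Leading genes differed in their course over the doses. SLC22A3 averaged 7.41 ± 0.234, 7.87 ± 0.673, 8.76 ± 0.333 and 11.7 ± 0.918 CPM in the vehicle and at 20, 100 and 500 µg/mL, and was called between 500 and 20 µg/mL (0.57, adjusted p = 9.52e-06). SLC5A3, by contrast, averaged 105 ± 14.5, 158 ± 6.83, 148 ± 15 and 172 ± 20.5 CPM, and was not called between 500 and 20 µg/mL (0.13, adjusted p = 0.636). Against extracts of other formulas at 500 µg/mL, 45 genes (0.24%) were called relative to Sayeok-tang, 15 higher (0.0799%) and 30 lower (0.16%). Relative to Banhasasim-tang, which had 2 libraries, 2290 (12.2%) were called, 1109 higher (5.9%) and 1181 lower (6.29%). Without the departing libraries, 36 and 1599 genes were called.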

How the data were processed

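HT29 messenger RNA was sequenced as paired reads from directional libraries, per the labels' protocols. The deposited values are expected counts per gene, which need not be whole (25.48% of values above 0 are not), made by the authors with RSEM 1.3.3 after FastQC 0.11.9, Trim Galore 0.6.5 and STAR 2.7.3a on GRCh38 (hg38), per the submitters' processing notes. Neither an annotation release nor a strand setting was given in the sources used here. Of 270 columns over 60675 genes, 240 match no sample described here and were left out. Libraries were grouped by title, extract, dose and time; the vehicle's label gives 0.1% DMSO and the series text 2%.

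Expected counts were rounded. Genes were filtered by filterByExpr (minimum count 10), given TMM factors and modelled by edgeR 4.0.16 under R 4.3.3 with 13 group means over 30 libraries, robust quasi-likelihood dispersions and 17 residual degrees of freedom (common dispersion 0.00407). The biological coefficient of variation of 6.38% is low, so small fold changes were called. Tests were two-sided, adjusted by Benjamini-Hochberg over all genes tested. The SE is the absolute log2 fold change over the root of the F statistic. CPM are TMM-scaled; 3 counts correspond to 0.0419 to 0.0699 CPM in the 6 libraries, which covers counting error only. Alternatives were DESeq2 1.42.0, other size factors, no filter, fewer libraries, a replicate block, a minimum fold change of 1.2 and leaving out libraries. Without both departing libraries, 2 libraries a group remained among 28.

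Named genes were (a) the 12 higher and 12 lower held genes with the largest fold change, a proper symbol, at least 5 CPM in 1 group and no overlap of libraries, (b) 6 and 6 by the same limits called only with the departing libraries, (c) 5 and 5 with the largest CPM difference and (d) up to 4 members per list with the smallest p, with further members where a list is described. The 32 lists came from textbook knowledge, and NQO1, UGT1A6, UGT1A1, FABP1, MYC, IER3 and SESN2 stand on more than 1. The comparison, genes and lists were chosen with earlier results of these data known. Symbols were matched for 56558 gene IDs (93.21%); coordinates are from GENCODE release 29 (GRCh38), and promoters from RefSeq (GRCh38.p14). Some list members are counted but not reported by name here.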

Additional observations from a re-analysis of the deposited data

Results flagged for a closer look

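The difference between Bojungikgi and another formula at the same dose of 500 µg/mL, tested directly in edgeR with Benjamini-Hochberg adjustment over all genes, was past the threshold for 10 genes among the leading genes, those with the largest CPM differences and the AhR targets first by p. Against Banhasasim (2 libraries), Bojungikgi was lower by the log2 difference for CYP1A1 (-5.07 ± 0.13, SE, adjusted p = 1.86e-19), CYP1B1 (-1.98 ± 0.05, adjusted p = 2.04e-20), TIPARP (-0.89 ± 0.06), SLC22A3 (-0.82 ± 0.07) and UGT1A6 (-0.20 ± 0.06). The mean level of CYP1A1 was 2.81 CPM with Bojungikgi and 94.8 CPM with Banhasasim, and that of CYP1B1 was 91.2 and 360 CPM. Bojungikgi was higher than Banhasasim for SLC5A3 (0.69 ± 0.11), SLC38A4 (0.56 ± 0.12), LGR5 (0.40 ± 0.06), ATAD2 (0.21 ± 0.07) and HSPA8 (0.19 ± 0.04). Against Sayeok (3 libraries), Bojungikgi was higher for CYP1A1 (1.2 ± 0.17, adjusted p = 0.000439) and CYP1B1 (0.52 ± 0.04, adjusted p = 1.86e-07). Without the departing libraries, of which Bojungikgi 500 replicate 2 belongs to these comparisons, ATAD2 was not called (0.15 ± 0.06, adjusted p = 0.0947) and the other 9 genes were called in the same direction.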

How the results depend on the processing

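The number of genes called was 5580 (2688 higher, 2892 lower, 672 over 1.5-fold) and stayed within 1.5 times with DESeq2 (5572), other size factors (5551) and no filter on low counts (5428). It fell to 1569 (782, 787 and 154) without both departing libraries, to 189 (91, 98 and 69) in a fit of only the 6 libraries, to 2907 (1570, 1337 and 231) in a fit of only the 4 libraries left without the departing ones, and to 199 (73, 126 and 141) when tested against a fold change of 1.2. In an alternative chosen after seeing the data, the same removal of both changed the count at 100 µg/mL from 2964 to 1446 and at 20 µg/mL from 3440 to 1866. Leaving out 1 library at a time gave 2822 to 6054 genes called (1331 to 2938 higher, 1491 to 3116 lower, 299 to 888 over 1.5-fold): 2822 without vehicle replicate 1, 3102 without Bojungikgi 500 replicate 2 and 4946 or more without any other. Replicate numbers did not pair the libraries (correlations of same-number libraries 0.143, 0.107 and -0.078). With a replicate block the count was 5796 in all 30 libraries and 2413 (1204 higher, 1209 lower, 403 over 1.5-fold) in only the 6 libraries. The 24 leading genes were called under every setting except only the 6 libraries (16), the replicate block there (21), only the 4 libraries (22) and the fold limit of 1.2 (23). The 10 genes with the largest CPM differences depended more on the setting. Of these, 0 were called in only the 6 libraries, 7 with the replicate block there and 2 at the fold limit of 1.2. Both sets were chosen as called in the main fit and without both departing libraries. Their calls in that last setting were therefore fixed by the choice, and the other settings share libraries with these fits. Over 15 settings, 158 named genes gave 2370 values. Of these, 1966 kept their side of the threshold, and 0 changed sign where the gene was called in either fit. A change of sign between uncalled values was counted as kept. The cause of these shifts was not tested. With 3 libraries a group, and 2 without the departing ones, small changes of weakly expressed genes could be missed.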
